A study of Mus musculus with 6 samples.

Results

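The 7 genes described here are best known from lymphatic vessels: Vegfc and Vegfd (ligands), Flt4 (their receptor), Prox1 (a transcription factor), Lyve1 and Pdpn (surface proteins) and Reln (a secreted glycoprotein). They were chosen by name, as the array probes whose printed gene name is a current or older symbol of 1 of them. The array files call Vegfd Figf and Lyve1 Xlkd1. This gave 12 of 41174 probes, on 21 spots per array, for 7 of 27573 genes.

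The samples were 6 tumors grown from Hepa1-6, a hepatoma line of the mouse, after subcutaneous inoculation of its cells into C57Bl/6 mice, all female. Of these, 3 were taken 15 days after inoculation (tumors 303, 313 and 318) and 3 after 10 days (tumors 302, 307 and 312). Each tumor's RNA carried Cy5 and shared an array with Cy3-labelled reference RNA, described as total RNA of blood of an untreated female of the same strain. The line is a single cell line, and no label ties a tumor to a mouse, so p-values cover only the spread among these 6 samples, which may be technical. The reference is 1 description of RNA, so its own spread is not in any test, and with no dye swap a probe's dye bias stays in its ratio.

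Lymphatic vessels return fluid and immune cells from tissue to the circulation, and they sprout when VEGF-C or VEGF-D binds the receptor tyrosine kinase encoded by Flt4 on lymphatic endothelial cells. Both ligands are made as precursors that are cut outside the cell, and the secreted factor CCBE1 with the protease ADAMTS3 promotes the cutting of VEGF-C. Prox1 sets lymphatic identity, while Lyve1 is also carried by some macrophages and by liver sinusoidal endothelium, and Pdpn by many fibroblasts, epithelia and mesothelium.

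By the scanner software's flag, 52.4% to 58.5% of an array's spots stood well above background in Cy5 and 47.5% to 52.8% in Cy3. The median Cy5 signal lay between 198 and 309.5 units, before any normalization. On the array of day 10 tumor 312 an area had lost signal, and 5 of the 21 spots described here lay inside it, for 3 probes. The label of the reference was checked with blood genes on the array, each by its brightest probe. S100a8, Ptprc and Slc4a1 were well above background in Cy3 on 0 arrays, and Cd79a on 1. Cd3e was so on 4, S100a9 on 5, and Alas2 and Hba-a1 on 6. Another probe of Ptprc did pass that mark in Cy3, so Ptprc was not absent from the reference. The liver genes Afp and Alb passed that mark in Cy3 on 6 of 6 arrays. Of 7 blood genes tested against the reference, 5 were higher in tumors (25.5% of all genes tested were) and 0 lower. Their median log2 ratio was 3.13, with Hba-a1 at 3.76 and Alas2 at 2.81. The reference is therefore called here by its label only. All arrays of a day lay on 1 slide, so slide and day cannot be told apart.

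Against the reference, 6 of the 7 genes were bright enough to test. Vegfd, Lyve1 and Pdpn were higher in tumors (3 of 6, against 25.5% of the 16295 genes tested) and Vegfc was lower (1 of 6, against 9.75%). A call needed an adjusted p under 0.05 and an absolute log2 ratio of at least 1, and these 4 genes were called under each of the 15 settings tried. Flt4 and Prox1 were not called, and Reln was too dim in most tumors to be tested. Between day 15 and day 10 tumors, 0 of 5 genes tested were called by limma with Benjamini-Hochberg adjustment (0 also at an unadjusted p under 0.05), where 0.0570% of 15778 genes were. Of the 7, Reln alone had 3 day 15 values on one side of its 3 day 10 values, with no overlap. This was so for 8.85% of the 15778 genes tested, which do not include it.

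The lymphatic markers were detected unevenly. Lyve1 and Pdpn were well above background in all 6 tumors with at least 1 probe. Both Prox1 probes designed from its RefSeq transcript were well above background on 0 of 6 arrays in either dye, and Flt4 was so in 1 tumor. Mmrn1 (multimerin), another gene of lymphatic endothelium, passed in 1 tumor. The lymphatic chemokine gene Ccl21a passed in 5. Its mean over all 6 tumors was 1.54-fold a reference level set by the background, which is not a strict bound. With a mean log2 ratio of 0.89, under the required size, Ccl21a was not called. Of 30 further genes of lymphatic endothelium on the array, many of them also expressed by blood vessels, 21 were above background in all 6 tumors and 3 in none. The 7 genes are therefore named one by one here, and their signal is not assigned to lymphatic vessels. In RNA of whole tumors, fewer cells of a type and less RNA per cell cannot be told apart.

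**Figure D1:**
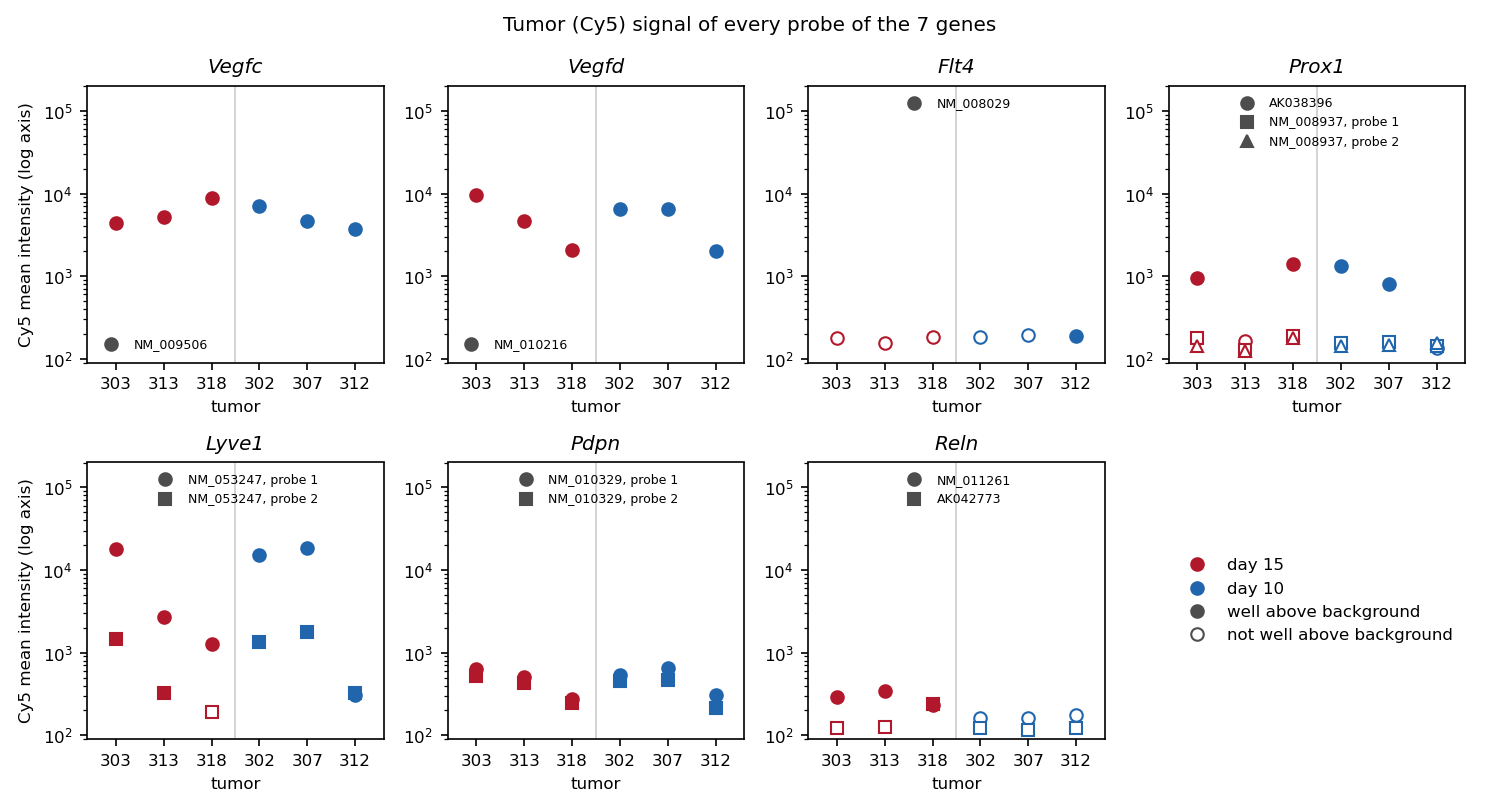
Cy5 mean intensity before normalization (log axis) of every probe of the 7 genes in each tumor, day 15 left and day 10 right, with filled symbols for spots well above background and open ones for the others. Vegfc and Vegfd were above background in all 6 tumors, Flt4 in 1 (312), and Lyve1, Pdpn and Vegfd had low signals in 318 and 312.

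Vegfc, which encodes the main growth factor for lymphatic endothelium, was lower in the tumors than in the reference. Its probe (A_51_P433870, from NM_009506) read 4339, 5226 and 8905 intensity units of Cy5 in day 15 tumors 303, 313 and 318, and 6992, 4671 and 3734 in day 10 tumors 302, 307 and 312. The Cy3 signal on the same arrays was 42483, 44296 and 38684 with the day 15 tumors and 44515, 33100.1 and 24747 with the day 10 tumors. Every tumor was thus below its reference, and both dyes were well above background on all 6 arrays.

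After normalization the log2 ratio of Vegfc was -2.21, -1.86 and -1.56 in day 15 tumors 303, 313 and 318. It was -2.05, -2.18 and -1.95 in day 10 tumors 302, 307 and 312. The mean was -1.97 ± 0.24 (SD, n = 6), a signal 3.91-fold higher in the reference, with an adjusted p of 9.0e-06 by limma with Benjamini-Hochberg adjustment. With median centring in place of loess the signal was 7.58-fold higher in the reference. The 6 values lay close together, and those of the days overlapped. The difference of day 15 minus day 10 was 0.18 (SE 0.20, 95% interval -0.30 to 0.66), and its limma adjusted p was 0.999. The spot lay at row 143, a few rows outside the lost area, and on the array of 312 its Cy5 signal was 0.49 log2 units and its Cy3 signal 0.78 below the median of the other arrays.

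Vegfd, the other ligand, was higher in every tumor. Its probe (A_51_P117739, from NM_010216, the array's Figf) read 9488, 4691 and 2050.2 units of Cy5 in day 15 tumors 303, 313 and 318, and 6584, 6463 and 2035 in day 10 tumors 302, 307 and 312. The Cy3 signal was 649, 514 and 394 with the day 15 tumors, and 544, 546 and 388 with the day 10 tumors. Tumors 318 and 312 had the lowest tumor signal and also the lowest reference signal, and no tumor reached down to its reference.

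The log2 ratio of Vegfd was 4.84, 4.24 and 2.69 in day 15 tumors 303, 313 and 318. It was 4.08, 4.11 and 2.97 in day 10 tumors 302, 307 and 312. The mean was 3.82 ± 0.82 (SD, n = 6), a 14.1-fold higher tumor signal, with an adjusted p of 5.71e-05 by limma with Benjamini-Hochberg adjustment. With median centring it was 8.96-fold higher. Within each day 1 tumor was low, 318 at day 15 and 312 at day 10, and the days overlapped. The difference of day 15 minus day 10 was 0.20 (SE 0.60, 95% interval -1.25 to 1.66), with a limma adjusted p of 0.999. The spot lay at row 175 and column 19, beside the lost area, whose columns begin at 23. On the array of 312 its Cy5 signal was 1.69 log2 units below the median of the other arrays, and its Cy3 signal 0.54 below.

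The 2 ligand genes stood on opposite sides of the reference, so the bases just before their start sites are shown side by side (250 bases 5′ to 3′ on the gene's strand, RefSeq, build GRCm38.p6). Vegfd is at chrX:164373272-164373521, plus strand, and Vegfc at chr8:54077282-54077531, plus strand. Capitals mark a TATA box, TATAAA, in Vegfd and GC boxes, GGGCGG, in Vegfc, both of which read as CCGCCC on this strand.
Vegfd: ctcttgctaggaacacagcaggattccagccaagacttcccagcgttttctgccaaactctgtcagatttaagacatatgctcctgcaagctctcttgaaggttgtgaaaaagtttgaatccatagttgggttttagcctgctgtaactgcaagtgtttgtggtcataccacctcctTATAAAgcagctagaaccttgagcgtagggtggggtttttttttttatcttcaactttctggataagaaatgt
Vegfc: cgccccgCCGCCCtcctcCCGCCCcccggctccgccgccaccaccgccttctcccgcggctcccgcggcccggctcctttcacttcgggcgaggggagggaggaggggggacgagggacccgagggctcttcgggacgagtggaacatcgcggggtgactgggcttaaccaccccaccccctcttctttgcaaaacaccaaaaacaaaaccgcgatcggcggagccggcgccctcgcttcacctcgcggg
G and C made up 42.4% of the Vegfd stretch and 71.6% of the Vegfc stretch, where the median over 32851 mouse promoters was 52.4%. On either strand, Vegfd held 1 TATA box and 0 GC boxes, and Vegfc 0 TATA boxes and 2 GC boxes. A TATA box stood in 12.4% and a GC box in 32.7% of all promoters of this length. The E-box letters CANNTG occurred 2 times in Vegfd and 0 times in Vegfc (66.2% of promoters hold them), and the AP-1 letters TGANTCA in neither (6.75% hold them). None of the marked matches overlapped another motif. These are matches of letters only and were not set against expression.

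Flt4, the receptor of both ligands, stayed near background in the tumors. Its probe (A_51_P179531, from NM_008029) read 177, 156 and 183 units of Cy5 in day 15 tumors 303, 313 and 318, and 186, 196 and 191 in day 10 tumors 302, 307 and 312. Only the spot of tumor 312 was well above background in Cy5, whereas 4 of 6 were in Cy3, at signals from 179.9 to 200.3. The mean log2 ratio was -0.35 ± 0.10 (SD, n = 6), with an adjusted p of 0.00334 by limma with Benjamini-Hochberg adjustment. At 1.27-fold this lay under the required size, so Flt4 was not called. It was too dim in the tumors for the comparison of days.

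Prox1, the transcription factor that keeps lymphatic endothelial cells in their fate, had 3 probes that disagreed. The probe with the brightest signal (A_52_P563908) was designed from a cDNA clone, AK038396, that the array files describe as unclassifiable. The other probes (A_51_P369056 and A_51_P369058, both from NM_008937) read between 126 and 188 units of Cy5 and were well above background on 0 arrays.

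The cDNA probe read 949, 163 and 1392 units of Cy5 in day 15 tumors 303, 313 and 318, and 1342, 799 and 136 in day 10 tumors 302, 307 and 312. Its spot lay inside the lost area, and on the array of 312 its Cy3 signal too was 2.95 log2 units below the median of the other arrays. Tumor 313, whose array had no lost area, was not well above background in Cy5 either, while its Cy3 spot read 855. The low Cy5 values thus came from 312, where both dyes were low inside the lost area, and from 313, where Cy5 alone was low.

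The log2 ratio of this probe was 0.61, -2.49 and 1.21 in day 15 tumors 303, 313 and 318, and 0.93, 0.58 and -0.24 in day 10 tumors 302, 307 and 312. The mean of 0.10 ± 1.36 (SD, n = 6) was smaller than its spread, and limma's adjusted p was 0.854. The sign of this mean turned under 7 of 13 other settings, to -0.70 from the scanner's processed signals. The difference of day 15 minus day 10 was -0.64 (SE 0.96, 95% interval -2.97 to 1.68), with a limma adjusted p of 0.999. Without tumor 313 it was 0.49.

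Tumor 313 was also the lowest for most hepatoma genes, 16 of 20, but not for Dlk1, H19, Gpc3 and Serpina1d, and Dlk1 and H19 were highest there. The median log2 ratio over 20 liver and hepatoma markers was 1.64, -1.56 and 2.66 in day 15 tumors 303, 313 and 318, and 1.73, 1.26 and 1.35 in day 10 tumors 302, 307 and 312. Their summed Cy5 signal ranged from 92361 to 1390780 units at day 15 and from 961518 to 1128010 at day 10. Both the hepatoma median and the cDNA probe were highest in 318 and lowest in 313, and the part of tumor cells in the Prox1 values was not tested.

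Lyve1, a hyaluronan receptor, was bright in tumors, while in the reference neither probe was well above background on any array. The brighter probe (A_52_P686785, from NM_053247) read 17763, 2686 and 1287 units of Cy5 in day 15 tumors 303, 313 and 318, and 15381, 18313 and 303 in day 10 tumors 302, 307 and 312. Its spot lay inside the lost area, and on the array of 312 its Cy5 signal was 5.90 log2 units below the median of the other arrays. By this signal the other tumors ran from 307, 303 and 302, all high, to 313 and then 318.

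The second probe (A_51_P155052, also from NM_053247) lay outside that area and read 1458, 327 and 192 units of Cy5 in day 15 tumors 303, 313 and 318. It read 1329, 1779 and 325 in day 10 tumors 302, 307 and 312, and the spot of 318 was not well above background. Outside the area too, 312 was low, 2.24 log2 units below the median of the other arrays, and 307, 303 and 302 were again the 3 high tumors.

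Because the reference was at background, the size of the Lyve1 difference has only a lower bound. It was at least 37.3-fold with the brighter probe, with an adjusted p of 0.00139 by limma with Benjamini-Hochberg adjustment. Over the 5 tumors other than 312, a choice made after seeing the data, it was at least 62.1-fold. With the second probe it was at least 4.80-fold, with an adjusted p of 0.00197 in the fit over probes. Such bounds set the tumor signal against the lowest signal that counted as well above background, and differ between probes of 1 gene with their brightness.

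Between the days, the Lyve1 log2 ratio differed by 0.16 (SE 1.90, 95% interval -4.44 to 4.75) with the brighter probe and by -0.86 (SE 0.90) with the second. The limma adjusted p was 0.999 for the gene. With the lost area left out, the brighter probe gave -1.85, and the sign turned under 8 of 16 alternatives, also without tumor 303 (-0.98). The interval covers large changes in either direction, so no difference between the days was detectable.

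Pdpn (podoplanin, a mucin-type membrane protein) was also dim in the reference, well above background there on 0 arrays. Its brighter probe (A_52_P380805, from NM_010329) read 630.2, 507 and 278 units of Cy5 in day 15 tumors 303, 313 and 318, and 539.9, 657 and 306 in day 10 tumors 302, 307 and 312. The second probe (A_51_P520456, from the same transcript) read 526, 424 and 246 in the day 15 tumors, and 451, 467 and 212 in the day 10 tumors. Both probes lay outside the lost area, were well above background in all 6 tumors, and were lowest in 318 and 312.

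The Pdpn signal was at least 3.34-fold higher in tumors with the brighter probe, with an adjusted p of 0.000206 by limma with Benjamini-Hochberg adjustment. With the second probe it was at least 2.54-fold higher, with an adjusted p of 0.000498 in the fit over probes. The days overlapped with both probes. The log2 difference of day 15 minus day 10 was -0.03 (SE 0.39, 95% interval -0.98 to 0.92) with the brighter probe, limma adjusted p 0.999, and 0.30 (SE 0.48) with the second.

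**Figure D2:**
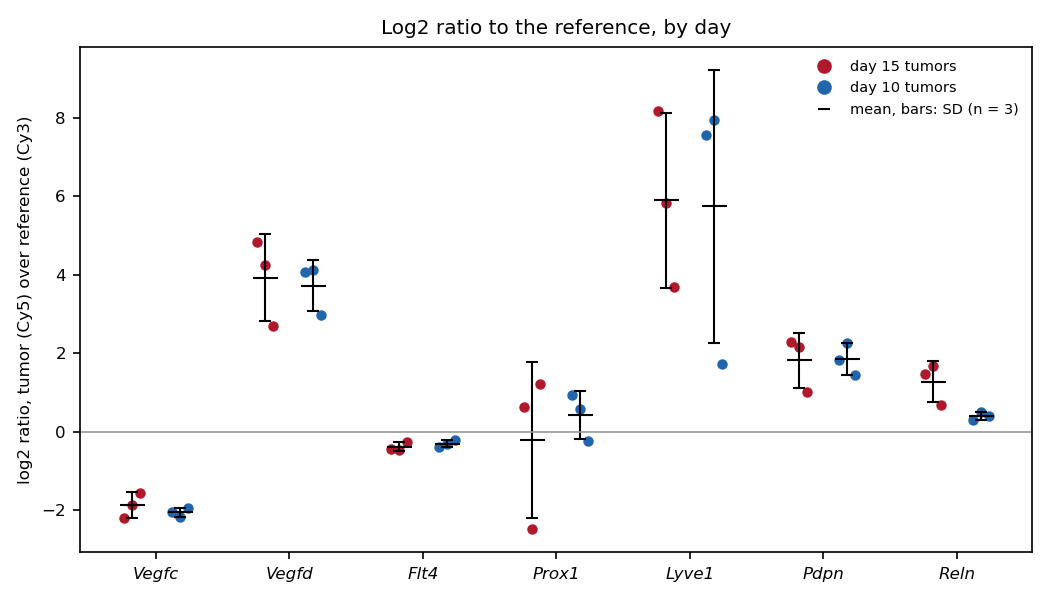
Log2 ratio of tumor (Cy5) over reference (Cy3) of each gene's brightest probe, with a point per tumor, the mean as a short line and the SD as bars (n = 3 per day), day 15 left of day 10. Vegfc lay between -2.21 and -1.56 and Vegfd between 2.69 and 4.84, and only for Reln did the points of the days not overlap; for Lyve1, Pdpn and Reln the reference was not well above background, so the size of the ratio is not a measured fold.

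Vegfd, Lyve1 and Pdpn shared an order over tumors: in all 3, day 15 tumor 318 and day 10 tumor 312 had the lowest log2 ratios. Vegfc did not share it, since 318 was its highest tumor. The array of 312 had the lowest median signal in both dyes, 198 units in Cy5 and 168 in Cy3. On it the brighter Lyve1 spot lay inside the lost area, the Vegfd spot beside that area and the Pdpn spots outside it. In the tumor channel alone, Lyve1 and Vegfd stayed lowest in 318 and 312. Pdpn there was 7.752 log2 units in 318, 8.606 in 302 and 8.612 in 312, so 302 lay below 312. The part of the array in the low values of 312 was not tested. Markers of cells that can carry these proteins were given beside them. The median log2 ratio of 16 macrophage markers was 4.74, 4.59 and 3.74 in day 15 tumors 303, 313 and 318, and 4.33, 4.30 and 3.86 in day 10 tumors 302, 307 and 312. It too was lowest in 318 and 312, and 15 of the 16 markers were higher in tumors than in the reference. For this and the following marker lists, 25.5% of all genes tested were higher and 9.75% lower.

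The summed Cy5 signal of the macrophage markers was 452052, 425727 and 228147 units in day 15 tumors 303, 313 and 318, and 478548, 437316 and 211019 in day 10 tumors 302, 307 and 312. Of the macrophage genes often found with Lyve1, Cd163 had log2 ratios of 5.07, 4.77 and 3.61 in the day 15 tumors and 4.55, 4.62 and 4.04 in the day 10 tumors. Folr2 (a folate receptor of resident macrophages) had 4.48, 4.44 and 3.77 in the day 15 tumors and 4.21, 4.08 and 3.69 in the day 10 tumors. Both were lowest in 318 and 312 among their own days. Timd4, a further gene of such macrophages, was the 1 of the 16 that was not called. It was well above background in 5 tumors and on 0 arrays in the reference. Mertk, another of the 16 and also named after its values were seen, was lowest in 303 and 302 within their days. It had 3.31, 4.37 and 3.47 in the day 15 tumors and 3.04, 3.35 and 3.48 in the day 10 tumors. The part of macrophages in the Lyve1 values was not tested.

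The median log2 ratio of 15 fibroblast markers was 4.87, 4.93 and 4.35 in day 15 tumors 303, 313 and 318, and 4.47, 4.24 and 4.17 in day 10 tumors 302, 307 and 312, and 13 of the 15 were higher in tumors. Blood endothelial markers (18 of 20 higher) had medians of 3.95, 4.24 and 3.42 in the day 15 tumors and 3.42, 2.97 and 2.68 in the day 10 tumors. Within each day, 318 and 312 had the lowest median of both lists. Of markers of sinusoidal endothelium, which also carries Lyve1, 4 of 7 tested were higher. These were Fcgr2b, Stab1 (also in the macrophage list), Dnase1l3 and Bmp2, all well above background in 6 tumors. Stab2 and Gata4 were above it in 5 tumors and Oit3 in 4, none of these called, and Clec4g and F8 in 0. From the scanner's processed signals Stab2 and Gata4 were called higher and Oit3 lower, and with median centring Oit3 was called lower. Of skin epithelium and mesothelium markers, cells that carry Pdpn, 0 of 5 tested were higher, and Msln and Upk3b were above background in Cy5 on 0 arrays.

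**Figure D3:**
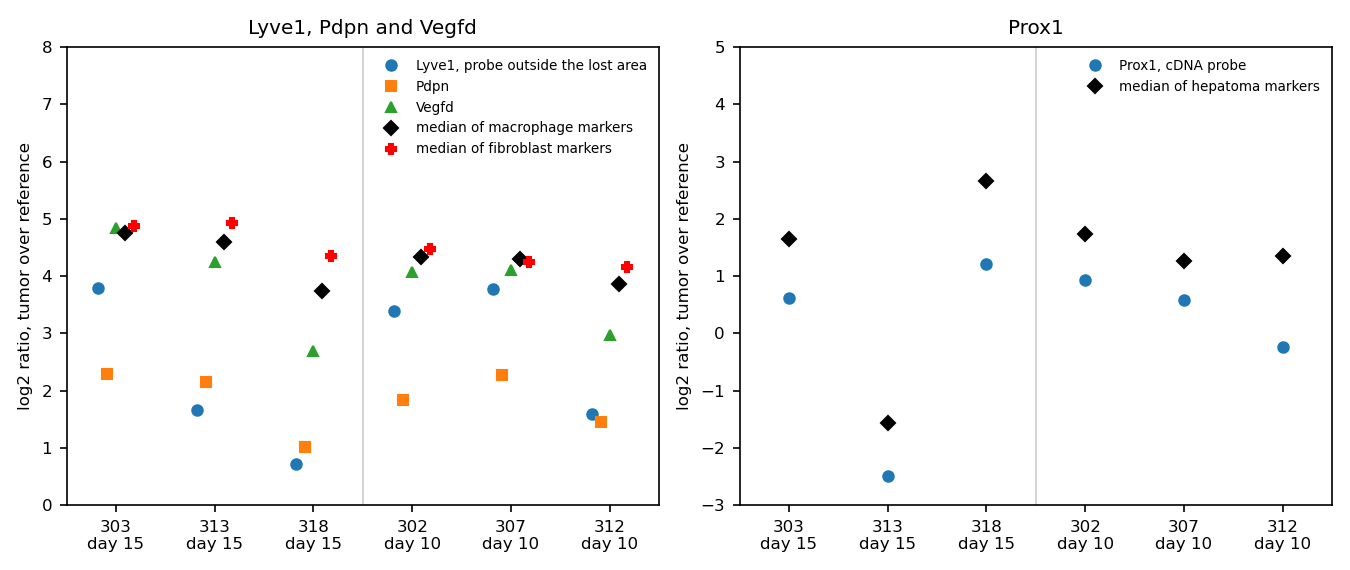
Log2 ratio of tumor over reference in each tumor, day 15 left and day 10 right: on one panel Lyve1 (second probe, outside the lost area), Pdpn and Vegfd with the medians of macrophage and fibroblast markers, on the other the Prox1 cDNA probe with the median of hepatoma markers. Lyve1, Pdpn and Vegfd were lowest in 318 and 312, as was the macrophage median at 3.74 and 3.86, and the Prox1 probe and the hepatoma median were lowest in 313, at -2.49 and -1.56.

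Reln encodes reelin, a large secreted protein known for guiding neurons that lymphatic endothelial cells also make. Its main probe (A_51_P365369, from NM_011261) was printed on 10 spots per array, which gave a check within each array. Their mean Cy5 signal was 292, 345 and 229.7 units in day 15 tumors 303, 313 and 318, and 162, 163 and 174 in day 10 tumors 302, 307 and 312. Of the 10 spots, 10, 10 and 2 were well above background in the day 15 tumors, and 0, 0 and 4 in the day 10 tumors. The 3 day 15 tumors all lay above the 3 day 10 tumors, with 318 nearest to them.

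The log2 ratio of Reln was 1.47, 1.68 and 0.68 in day 15 tumors 303, 313 and 318, and 0.31, 0.49 and 0.39 in day 10 tumors 302, 307 and 312. The day means differed by 0.88, by 0.89 with the median of the spots, and by 0.81 with the 3 spots in the lost area left out, the last pair of values chosen after seeing the data. The probe had the required 5 of its 10 spots above background in 2 of 6 tumors and so was not among the genes tested between days. Without a filter on dim probes, the SE was 0.26 and limma's adjusted p over 27572 genes was 0.997, so the difference did not pass. In Cy5 after loess and scaling between arrays, the mean day 15 signal was 1.80-fold a day 10 level set by the background. That mean includes tumor 318, which did not meet the rule of 5 spots, so the value is not a strict bound.

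In the reference, Reln was well above background on 0 arrays by the same rule, so its log2 ratios give an order of tumors and not a measured fold. A second Reln probe (A_52_P515857, from the cDNA AK042773) was well above background in 1 tumor, 318, at 240.4 units in Cy5 and 240.9 in Cy3. In the other tumors it read between 115 and 126 in Cy5, at background, so it bears on no difference between the days.

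**Figure D4:**
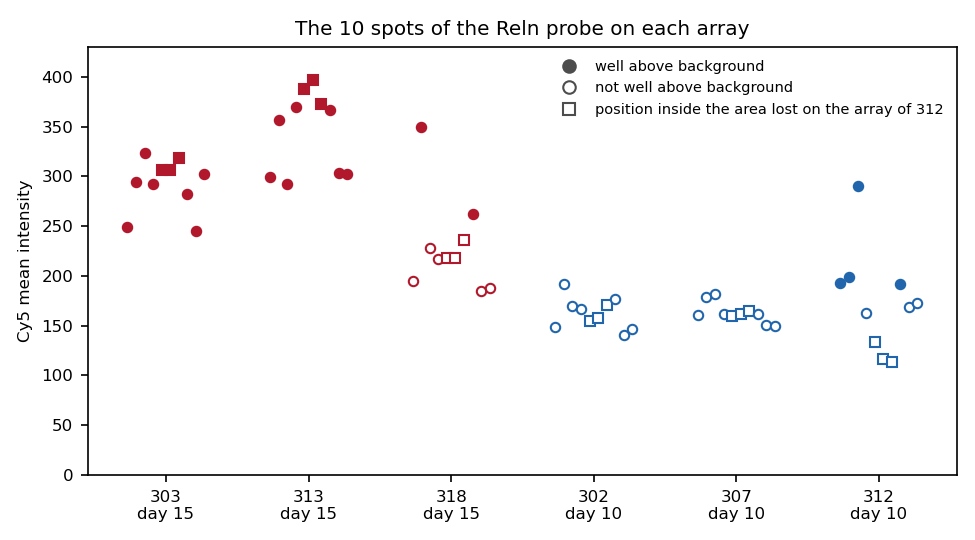
Cy5 mean intensity of the 10 spots of the main Reln probe in each tumor (day 15 left, day 10 right), filled where well above background and square where the position fell inside the area lost on the array of 312. Spots ranged from 245 to 323 in tumor 303 and from 292 to 397 in tumor 313, above all spots of tumors 302 and 307.

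The other genes of the pathway were followed as lists. Of 14 tested genes for VEGF-C processing and for VEGF ligands and receptors, 8 were higher and 1 lower than in the reference, with a median log2 ratio of 1.19, where the median of all genes tested was 0.22. Of all genes tested, 25.5% were higher and 9.75% lower, which are the shares to set beside the counts of each list. Flt1 (a receptor of VEGF-A) had a mean log2 ratio of 5.20 ± 0.64, Nrp2 (a coreceptor for VEGF-C) 3.42 ± 0.28 and Itga9 (an integrin subunit of lymphatic valves) 3.22 ± 0.25 (SD, n = 6 each). The gene that was lower was Ccbe1, the helper of VEGF-C cutting, at -2.35 ± 0.41, with a limma adjusted p of 3.19e-05. Its values were -2.85, -1.79 and -2.55 in day 15 tumors 303, 313 and 318, and -1.94, -2.64 and -2.31 in day 10 tumors 302, 307 and 312. Adamts3, the protease of that step, was well above background in 0 tumors. Kdr, the main VEGF receptor of blood endothelium, was at least 7.97-fold higher.

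Of 8 tested transcription factors of lymphatic development, 5 were higher and 1 lower, with a median of 1.26. Gata2 was higher with a limma adjusted p of 6.66e-05, with no size given because another of its probes was well above background in the reference on 1 array. Foxc1 was at least 2.23-fold higher. Foxc2 was higher too, its mean over 6 tumors being 1.60-fold a reference level set by the background. Only 4 of these tumors were well above background, so the value is not a strict bound. Klf2, a factor that responds to flow, had a log2 ratio of 1.29 ± 0.17 (SD, n = 6). Sox18, which switches on Prox1 in the embryo, had 2.58 ± 1.42, with its probe inside the lost area and a value of -0.10 in tumor 312. Hhex was lower, at -1.12 ± 0.72.

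Of 25 further genes of lymphatic endothelium, 16 were higher and 0 lower, with a median of 2.44. Among them were Mrc1 (a mannose receptor also of macrophages) at 7.05 ± 0.62, Gja1 (a gap junction gene) at least 24.7-fold higher, and Adm (adrenomedullin) at 4.81 ± 0.58. Ackr4 and Angpt1 were above background in 0 tumors. Of 10 partners of podoplanin and reelin, 2 were higher and 1 lower, with a median of 0.43. These counts were near the shares over all genes tested, 25.5% and 9.75%. Clec1b (the platelet receptor of podoplanin) was at least 16.9-fold higher, Lgals8 (galectin-8) had 1.10 ± 0.24, Itga3 had -0.70 ± 0.20 and was not called, and the reelin receptor gene Lrp8 was lower at -1.23 ± 0.27. With median centring in place of loess, which put the median of all genes at -0.34, the median of the podoplanin and reelin partners was -0.37, Itga3 was called lower as well, and 2 of the 25 further lymphatic endothelial genes, Angpt2 and Gja5, were called lower.

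Between day 15 and day 10, 0 genes of these 4 lists passed the adjusted threshold in limma. At an unadjusted p under 0.05 there were 2 of 8 transcription factors, 1 of 14 processing and receptor genes, 4 of 25 further lymphatic endothelial genes and 2 of 10 partners, where 609 of 15778 genes stood at that level. The median log2 differences were 0.31, 0.01, 0.29 and -0.19 in that order, against 0.02 over all genes. With median centring they were 0.07, -0.28, -0.10 and -0.50, against -0.30 over all genes, so the signs for the processing and receptor genes and for the further endothelial genes turned with the scale. Among these, Sox18 differed by 1.87, and by 1.003 with the lost area of 312 left out, where it still had an unadjusted p under 0.05. Foxc2 differed by 0.69, Kdr by 0.84 (0.80 with that area left out) and the reelin receptor gene Vldlr by -0.98, and none of the 4 passed with adjustment. Of the blood endothelial markers, none of which passed either, 19 of 20 had a positive difference, with a median of 0.64 (16 of 20 and 0.24 with median centring). Of these 20, 10 had an unadjusted p under 0.05, among them Sox18, Kdr and Cldn5, which the lymphatic lists hold too, and the part of blood vessels in the list values was not tested. Over all genes, 8673 of 15778 had a positive difference. So did 16 of 16 macrophage, 14 of 15 fibroblast and 6 of 20 hepatoma markers (7, 9 and 4 with median centring).

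The genes whose log2 ratio followed a member most closely were found among genes well above background in Cy5 on all arrays. For Vegfd (9265 genes, 6 tumors) they were Ipo4 (Pearson r = 0.997), Tcn2 (0.997) and Cant1 (0.996). For Vegfc they were Gsap (0.995), Nsd2 (0.994) and Tma7 (0.990). For Pdpn they were Osbpl5 (0.992), Necap2 (0.991) and Garnl3 (0.990). For Lyve1, over the 5 tumors other than 312 and 9266 genes, they were Tlr3 (0.998), Ifi27l2a (0.996) and Adam9 (0.995). These values describe 5 or 6 tumors that share slides and a reference, and each is the top of a search through all those genes.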

How the data were processed

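Expression of 6 tumors was measured on 2-colour arrays, tumor in Cy5 and reference in Cy3 per the labels. Per the file headers, the deposited scanner files were made with Agilent Feature Extraction 9.1.3.1 (also in the submitters' processing notes) and hold mean and background intensity per spot, not normalized. The deposited log10 ratio is processed Cy5 over processed Cy3, which the software had background-subtracted and dye-normalized, and the authors' value table holds the same log10 ratios. The flags for well above background, saturation and outliers were used as deposited, and 0 spots of the 7 genes were saturated or outliers.

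In limma 3.58.1 (R 4.3.3), intensities were background-corrected with normexp (offset 50) and log2 ratios normalized within arrays by loess, in which control and outlier spots had weight 0. Spots of a probe were averaged. Through a mouse RefSeq table (GRCm38.p6), accessions named 23374 probes, current symbols 6733 and former symbols 2919, and the other 8148 carry the array's name. Promoters came from RefSeq and held 6 of the 7 genes. A gene was represented by its probe of highest mean log intensity.

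Against the reference, the mean of the 2 day means was tested against 0 for 16295 genes that rose well above background in at least 1 dye on 3 or more of the 6 arrays. Between days, 15778 genes above it in Cy5 on 3 or more arrays were tested. Both tests were 2-sided, by lmFit and eBayes with p-values adjusted over all genes tested (Benjamini-Hochberg). The test between days was also run on simulated data, and the test against the reference was not. The number of arrays limits the precision. Where the reference was not above background on any array, the fold is a bound, taken after loess and Aquantile scaling and open to dye bias. It is not strict where some tumors were not well above background in Cy5.

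All 7 genes are named with every probe, and of each pathway list the 3 genes of largest absolute ratio that were above background in Cy5 on all arrays. Ccbe1, Adamts3, Kdr, Ccl21a, Mmrn1, Sox18, Foxc2, Vldlr, Lrp8, Hhex, Timd4, Cd163, Folr2, Afp, Alb, Treml1, Pf4, Ppbp, the hepatoma and sinusoidal markers, Cldn5 and all genes given as above background in 0 tumors or as changing with the scale were named after their values were seen. Members and lists were chosen with earlier results of these data known. Alternatives were the scanner's processed signals, the value table, median centring, no background correction, other filters, the mean of all probes, the lost area left out, each tumor left out, the tumor channel alone, and array position as a block.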

Additional observations from a re-analysis of the deposited data

Results flagged for a closer look

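By Dixon's test for 1 outlying value among 6 (critical value 0.625), none of the 7 genes had 1 tumor far outside the range of the other 5. Among the 36 genes examined, 5 did, and chance marks about 1 in 20. Some of the 36, among them Afp, Alb and Mmrn1, were named after their values were seen, so the count is not read against chance. Not all genes named here were among the 36. The Prox1 cDNA probe was not marked, though it had -2.49 in tumor 313, against -0.24 to 1.21 in the others. The value of -0.24 came from the spot of tumor 312 inside the lost area. Gata2, a transcription factor of lymphatic valves, had a log2 ratio of 4.54 in day 15 tumor 303, against 2.17 to 2.97 in the other tumors. Mmrn1 had 1.36 in the same tumor, against 0.11 to 0.38 in the others, and this was the only tumor where it was well above background. Itga3 had -1.11 in day 15 tumor 313, against -0.64 to -0.57 in the others. In tumor 313 the hepatoma genes Afp and Alb had -4.75 and -2.48, against 2.22 to 3.25 for Afp and 2.26 to 3.06 for Alb in the other tumors.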

How the results depend on the processing

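The 4 genes called against the reference kept their direction and call under all 14 alternatives, with log2 ratios from -2.92 to -1.88 for Vegfc and from 3.16 to 4.13 for Vegfd. Those of Lyve1 ranged from 4.15 to 7.73 and those of Pdpn from 1.54 to 3.09, over a reference at background. The number of genes lower than the reference was 1588 and became 3226 with the scanner's processed signals, 3222 with the value table and 4592 with median centring. The share of calls that were higher was 72.3% with loess (4154 higher), 57.9% with processed signals (4431) or the value table (4437), and 41.3% with median centring (3231). The median log2 ratio of all genes tested was 0.22, -0.03 with processed signals and -0.34 with median centring, and the causes of these shifts were not tested.

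Between the days, 9 genes were called, 1 when required above background on all 6 arrays, 0 in the tumor channel alone, 14 with position as a block, and 2 to 26 when a tumor was left out. None of these counts included one of the 7 genes. For each of the 5 genes tested between days, the sign of the difference turned under at least 1 alternative. For Lyve1 (0.16) the sign turned to -0.042 with processed signals and the value table, -0.14 with median centring, -0.35 with the mean of probes, -1.85 with the lost area left out and -0.13 in the tumor channel, and ranged from -1.85 to 1.26 with a tumor left out (-1.85 without 312, -0.98 without 303). For Pdpn (-0.03) it was 0.14 with the mean of probes, and -0.27 to 0.37 with a tumor left out (0.18 without 307, 0.37 without 318). For Prox1 (-0.64) it was 0.18 in the tumor channel, and -1.36 to 0.49 with a tumor left out. For Vegfc (0.18) it was -0.19 with median centring. For Vegfd (0.20) it was -0.13 with median centring and -0.0055 in the tumor channel, and -0.25 to 0.82 with a tumor left out (-0.17 without 312). The Prox1 ratio to the reference (0.10) was -0.70 with processed signals and the value table, -0.29 with median centring, -0.15 with the mean of probes, and -0.26 to 0.67 with a tumor left out (-0.03 without 302, -0.11 without 303).

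Of the 12 probes, 7 were not well above background in Cy5 in all tumors, so low levels of Prox1, Flt4 and Reln are limited by background.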

Other observations

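Clec1b, the receptor through which platelets bind podoplanin, was at least 16.9-fold higher in the tumors than in the reference, and it also stands in the list of platelet markers. Of 9 platelet marker genes on the array, 7 were tested against the reference, with a median log2 ratio of 0.62. Of these, 3 were higher and 1 lower, where 25.5% and 9.75% of all genes tested were. The higher ones were Clec1b, Pf4 (a platelet chemokine) at a log2 ratio of 5.22 ± 0.18 (SD, n = 6) and Treml1 (a receptor of platelet granules), at least 2.65-fold higher. The lower one was Ppbp, another platelet chemokine, at -2.62 ± 0.46. Gp5 and Gp6 (platelet glycoproteins) were well above background in 0 tumors. Between day 15 and day 10, 0 of 6 platelet genes tested passed limma's adjusted threshold, 0 also at an unadjusted p under 0.05, and their median difference was 0.28.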
